A study of Rattus norvegicus with 40 samples.

Results

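The translation initiation factors measured here are the genes whose rat symbol begins with Eif1 to Eif6, leaving out the eIF4E-binding proteins (Eif4ebp) and the eIF2 alpha kinases (Eif2ak), which regulate the factors and are given separately. Of 28826 transcript clusters (the probe groups that stand for 1 gene each on the array), 15209 carried exactly 1 gene symbol, and 38 genes fitted this rule. Eif3h had 2 transcript clusters and the one with the higher mean (11.75) was used. The other (8.76) also lay above the intensity limit for testing and correlated with it at 0.80 over the arrays. Results for Eif3h below are those of the used cluster alone. All 38 lay above the intensity limit for testing. No transcript cluster was named Eif1, Eif3f, Eif3g, Eif3m, Eif4a3 or Eif4g1 alone in the annotation used here, so those factors were not analysed here.

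Initiation factors bring the small ribosomal subunit, the initiator tRNA and an mRNA together. eIF4E binds the cap, eIF4G bridges it to the ribosome, and the helicase eIF4A with eIF4B and eIF4H unwinds the leader. eIF3 holds the small subunit, eIF1 and eIF1A help to choose the start codon, and eIF2 carries the initiator tRNA and is recharged by its exchange factor eIF2B. eIF5 triggers GTP hydrolysis on eIF2, eIF5B joins the large subunit, and eIF6 keeps free large subunits apart. The kinase mTOR, which rapamycin inhibits in part, controls the cap-binding step through the eIF4E-binding proteins.

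Liver RNA of Sprague Dawley rats was hybridised to 40 Affymetrix Rat Gene 1.0 ST arrays in 12 groups, formed by 3 models, 2 treatments and 2 fractions. The fetal groups were fetuses injected with rapamycin (50 µg per fetus) or its solvent dimethyl sulfoxide (DMSO) on gestation day 19, with livers taken on day 20. The partial hepatectomy groups were adults of 125 to 150 g injected with rapamycin (250 µg per 100 g of body weight) or DMSO 1 h before most of the liver was removed, with the regenerating remnant taken 24 h after surgery. The fasted/refed groups were adults of the same weight, fasted for 48 h, injected with the same rapamycin dose or DMSO, and refed for 3 h from 1 h after injection. From each liver both polysome RNA (mRNA carrying several ribosomes, from gradients) and total RNA were arrayed, giving n = 4 livers per group in fetuses and n = 3 in each adult model. The polysome RNA came from preparations labelled as pooled, with no statement of what went into a pool; a replicate number was read as 1 liver. No liver was left untreated, and no adult liver was without either fasting and refeeding or surgery. The 3 hepatectomy polysome DMSO arrays carry the time point of refeeding in one label, and their titles, which name hepatectomy, were used. Genes of dividing cells averaged 10.41 to 10.84 in these arrays, against 5.87 to 6.19 in refed polysome DMSO arrays.

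Values are log2 of the deposited intensities, which compare a gene across arrays but not one gene with another. Array medians lay between 7.09 and 7.40, and arrays give no read depth, so the number of arrays limits precision. In whole liver, fewer cells of a type and less RNA per cell cannot be told apart. Hepatocyte markers (8 of 8 measured) averaged 12.98 to 13.58 in the fetal arrays, 13.45 to 13.89 in the hepatectomy arrays and 13.75 to 14.01 in the fasted/refed arrays. The 3 fasted/refed total DMSO arrays were spread widely for several members. Eif3a, for example, read 11.29, 10.82 and 11.93 in them, so results that use this group are given with and without its arrays where a count turned on one.

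Start regions of the members most of the results turn on are shown first, because rapamycin acts most strongly on mRNAs that open with a cytosine and a run of pyrimidines (TOP mRNAs). RefSeq (build GRCr8) held start regions for 34 of the 38 genes, and not for Eif3e, Eif3h, Eif4b and Eif4e3. Each sequence below runs 5′ to 3′ for 60 bases, from 40 before an annotated start of the gene. The first 5 bases transcribed from that start are in capitals.
Eif5 (chr6:136410293-136410352, plus strand): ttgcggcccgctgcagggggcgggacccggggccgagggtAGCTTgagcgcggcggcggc
Eif2b2 (chr6:110597939-110597998, plus strand): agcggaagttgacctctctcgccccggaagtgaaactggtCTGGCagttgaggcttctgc
Eif4e (chr2:229740713-229740772, plus strand): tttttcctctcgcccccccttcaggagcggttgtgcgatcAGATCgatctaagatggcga
Eif3a (chr1:269919006-269919065, minus strand): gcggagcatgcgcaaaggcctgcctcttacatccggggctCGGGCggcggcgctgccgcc
Eif3i (chr5:147226891-147226950, minus strand): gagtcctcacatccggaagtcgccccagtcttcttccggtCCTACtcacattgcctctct

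Eif5, Eif2b2 and Eif4e are the members called lower in total RNA with rapamycin, and Eif3a and Eif3i are those with the largest polysome differences in adults. A C followed by at least 4 bases that were each C or T, on the transcribed strand and beginning no more than 5 bases from the annotated start, was found at 5 of the 37 member starts (13.5%), those of Eif2a, Eif2b5, Eif2s3, Eif3c and Eif4g3. It was found at 17.0% of all 33469 RefSeq starts. None of the 5 printed regions held it in that window. The printed starts of Eif4e and Eif3a lie inside the RefSeq spans of these genes (chr2:229736309-229772628 and chr1:269888730-269925785). For both genes the printed region is therefore not that of the outermost 5′ end.

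**Figure D1:**
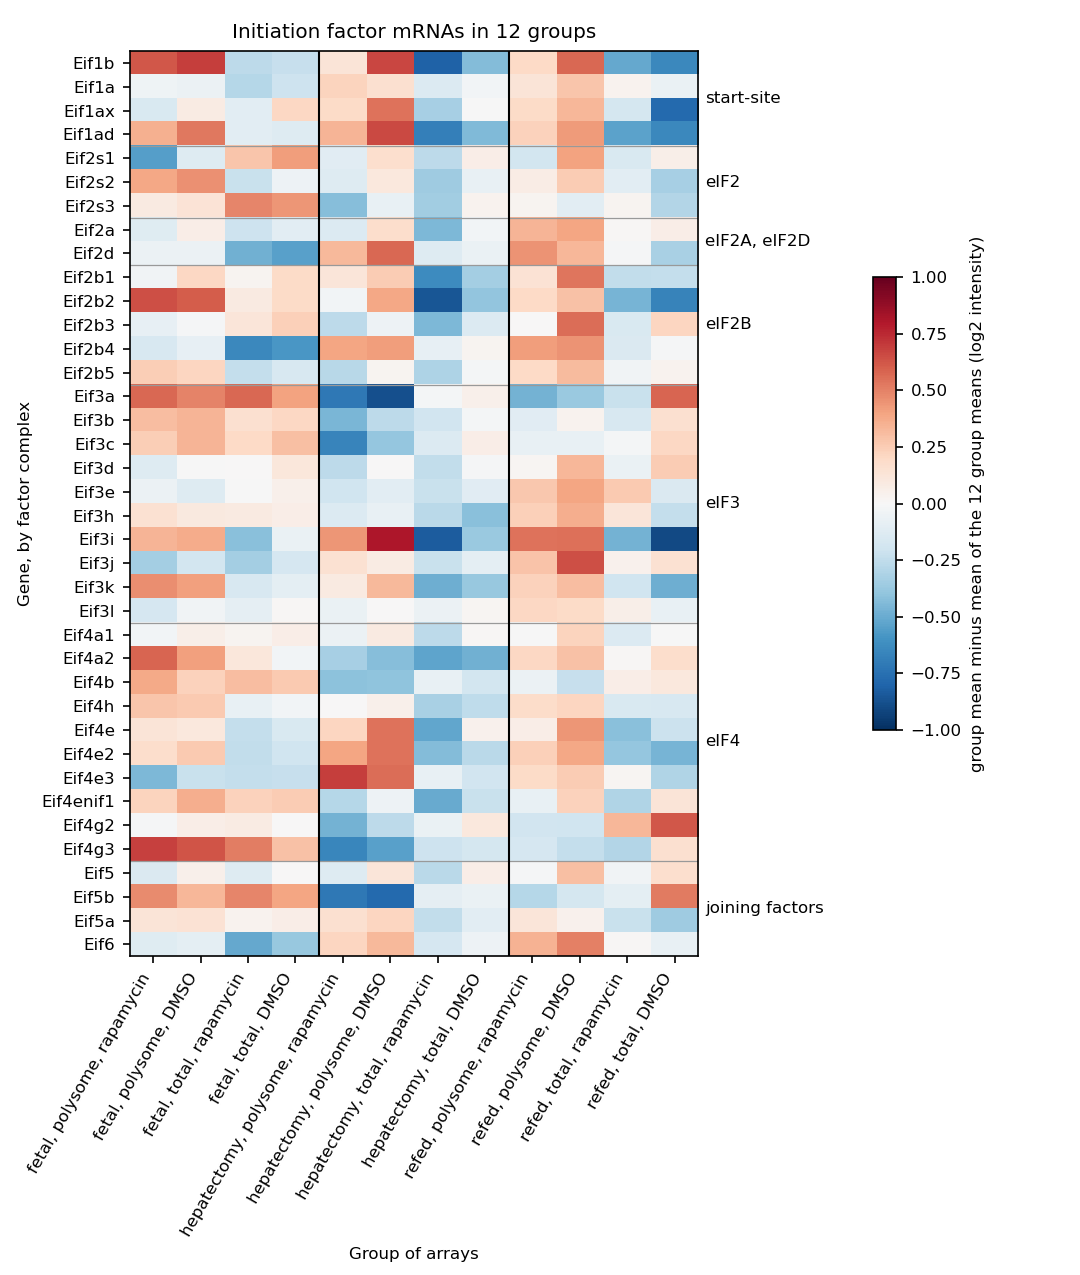
Heat map of the 38 genes (rows, by factor complex) in the 12 groups (columns). Colour is the group mean minus the mean of the 12 group means, in log2 intensity. Eif1b, Eif1ad and Eif3i are redder in polysome columns of every model, and Eif3a and Eif5b are bluest in the hepatectomy polysome columns.

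Over the 12 groups, group means of a member differed by between 0.37 (Eif3l) and 1.71 (Eif3i) on the log2 scale from the lowest to the highest group. The levels of 12 members set down for description are given here, as mean ± SD. The cap-binding protein gene Eif4e was lowest in hepatectomy total rapamycin arrays (10.18 ± 0.06, n = 3) and highest in hepatectomy polysome DMSO arrays (11.24 ± 0.22, n = 3). Its 2 highest groups, the hepatectomy and fasted/refed (11.14 ± 0.24, n = 3) polysome DMSO arrays, lay within one SD of each other. Eif5, the GTPase activator of eIF2, was lowest in the same hepatectomy total rapamycin arrays (11.63 ± 0.04) and highest in fasted/refed polysome DMSO arrays (12.20 ± 0.11). Every one of the 6 rapamycin groups of Eif5 had a mean of 11.89 or less, and every DMSO group one of 11.90 or more. The 2 nearest of these, fasted/refed polysome rapamycin (11.89 ± 0.02) and fetal total DMSO (11.90 ± 0.03), did not differ beyond their spread.

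Eif2s1, the regulated alpha subunit of eIF2, was lowest in fetal polysome rapamycin arrays (10.64 ± 0.35, n = 4) and highest in fetal total DMSO arrays (11.60 ± 0.14, n = 4). Eif2b5, the catalytic subunit of eIF2B, ran from 8.87 ± 0.07 in hepatectomy total rapamycin arrays to 9.50 ± 0.05 in fasted/refed polysome DMSO arrays. The eIF3 scaffold gene Eif3a was lowest in hepatectomy polysome DMSO arrays (9.89 ± 0.17) and highest in fasted/refed total DMSO arrays (11.35 ± 0.56), whose spread covers the 4 fetal groups (11.17 to 11.34). Eif3e and Eif3h were highest in fasted/refed polysome DMSO arrays (11.07 ± 0.21 and 12.10 ± 0.08). Eif3e was lowest in hepatectomy total rapamycin arrays (10.45 ± 0.08), and Eif3h in hepatectomy total DMSO arrays (11.32 ± 0.06).

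The helicase Eif4a1 varied little, between 12.59 ± 0.10 in hepatectomy total rapamycin arrays and 13.07 ± 0.17 in fasted/refed polysome DMSO arrays, with most neighbouring groups inside their SD. Its paralog Eif4a2 ran from 10.85 ± 0.07 in hepatectomy total rapamycin arrays to 11.95 ± 0.09 in fetal polysome rapamycin arrays. The helicase cofactor Eif4b had its 4 highest means in the 4 fetal groups (12.41 to 12.56) and its lowest in the 2 hepatectomy polysome groups (both 11.77). Eif5a, the hypusine-bearing factor, was lowest in fasted/refed total DMSO arrays (12.72 ± 0.12) and highest in hepatectomy polysome DMSO arrays (13.29 ± 0.04). Eif6 was lowest in fetal total rapamycin arrays (10.25 ± 0.19) and highest in fasted/refed polysome DMSO arrays (11.27 ± 0.22).

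Over the 12 group means, the members whose pattern was most like that of Eif4e were Eif4e2 (Pearson r = 0.91), Eif3i (0.88) and Eif1ad (0.86). Those most like Eif4b were Eif4g3 (0.93), Eif5b (0.92) and Eif3a (0.90). The group means share livers between fractions and the normalization of the series, and these values are a description.

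After partial hepatectomy, a few initiation factor mRNAs were called lower with rapamycin, and none was called higher. The threshold was an adjusted p of 0.05 (limma, Benjamini-Hochberg over 10860 transcript clusters). Of the 2 polysome and 3 total RNA calls below, 0 were kept in every alternative fit. In polysome RNA 2 of 38 fell and 0 rose, against 4.1% of all transcript clusters that fell and 2.26% that rose. Eif1b, the paralog of the start-codon factor eIF1, read 9.99, 10.08 and 10.31 in rapamycin livers and 10.54, 10.55 and 10.91 in DMSO livers. The groups did not overlap, and Eif1b fell by 0.54 ± 0.15 (log2 change ± SE, limma adjusted p = 0.0494). Eif2b2, the beta subunit of eIF2B, fell by 0.41 ± 0.11 (limma adjusted p = 0.0446).

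In total RNA of the same livers 3 of 38 fell and 0 rose, against 3.54% and 1.47% of all transcript clusters. The cap-binding Eif4e read 10.19, 10.23 and 10.12 in rapamycin livers and 10.47, 10.97 and 10.78 in DMSO livers. Every rapamycin array was below every DMSO array, a difference of -0.56 ± 0.14 on the log2 scale (limma adjusted p = 0.0405). Eif2b2 fell by 0.46 ± 0.11 (limma adjusted p = 0.0358) and Eif5 by 0.33 ± 0.07 (limma adjusted p = 0.0252). The counts of 2 and 3 are small enough that their shares, 5.26% and 7.89%, rest on single genes.

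The whole group lay to the low side in both fractions. In polysome RNA 32 of 38 members had a negative change, with a median of -0.20 against -0.01 over all transcript clusters. In total RNA 35 of 38 were negative, with a median of -0.17 against -0.01. Over all transcript clusters, 47.6% of changes were positive in polysome RNA and 47.2% in total RNA. All 3 eIF2 subunits, all 5 eIF2B subunits and all 4 eIF5, eIF5B, eIF5A and eIF6 genes had negative changes in total RNA. Of the eIF4 group the median was -0.12 there, and Eif4b (0.11 ± 0.09, limma adjusted p = 0.507) and Eif4e3 lay above 0. Eif3h (0.15 ± 0.09, limma adjusted p = 0.315) had the highest change of any member in total RNA, and Eif3a (0.17 ± 0.11, limma adjusted p = 0.356) in polysome RNA.

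These calls turned on single arrays. In polysome RNA, leaving out DMSO replicate 1 gave 7 members, all lower (18.4%, against 15.5% of all transcript clusters called), and leaving out any of the other 5 arrays gave 0. In total RNA, leaving out DMSO replicate 1 gave 5 (13.2%, against 7.8% of all), and leaving out DMSO replicate 2, DMSO replicate 3, rapamycin replicate 1 or rapamycin replicate 3 gave 0. Without rapamycin replicate 2 it was 2, Eif2b2 and Eif5 (5.26%, near the 4.99% of all). Genes of dividing cells moved with these changes: 6 of 7 tested fell in each fraction, and their mean log2 level was 8.40 to 9.65 in rapamycin and 10.41 to 10.84 in DMSO polysome arrays, and 7.96 to 9.36 in rapamycin and 9.95 to 10.67 in DMSO total arrays. Endothelial markers rose, 3 of 7 in each fraction, with means of 10.09 to 10.21 in rapamycin and 9.47 to 9.82 in DMSO total arrays. Their part in the initiation factor changes was not tested.

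**Figure D2:**
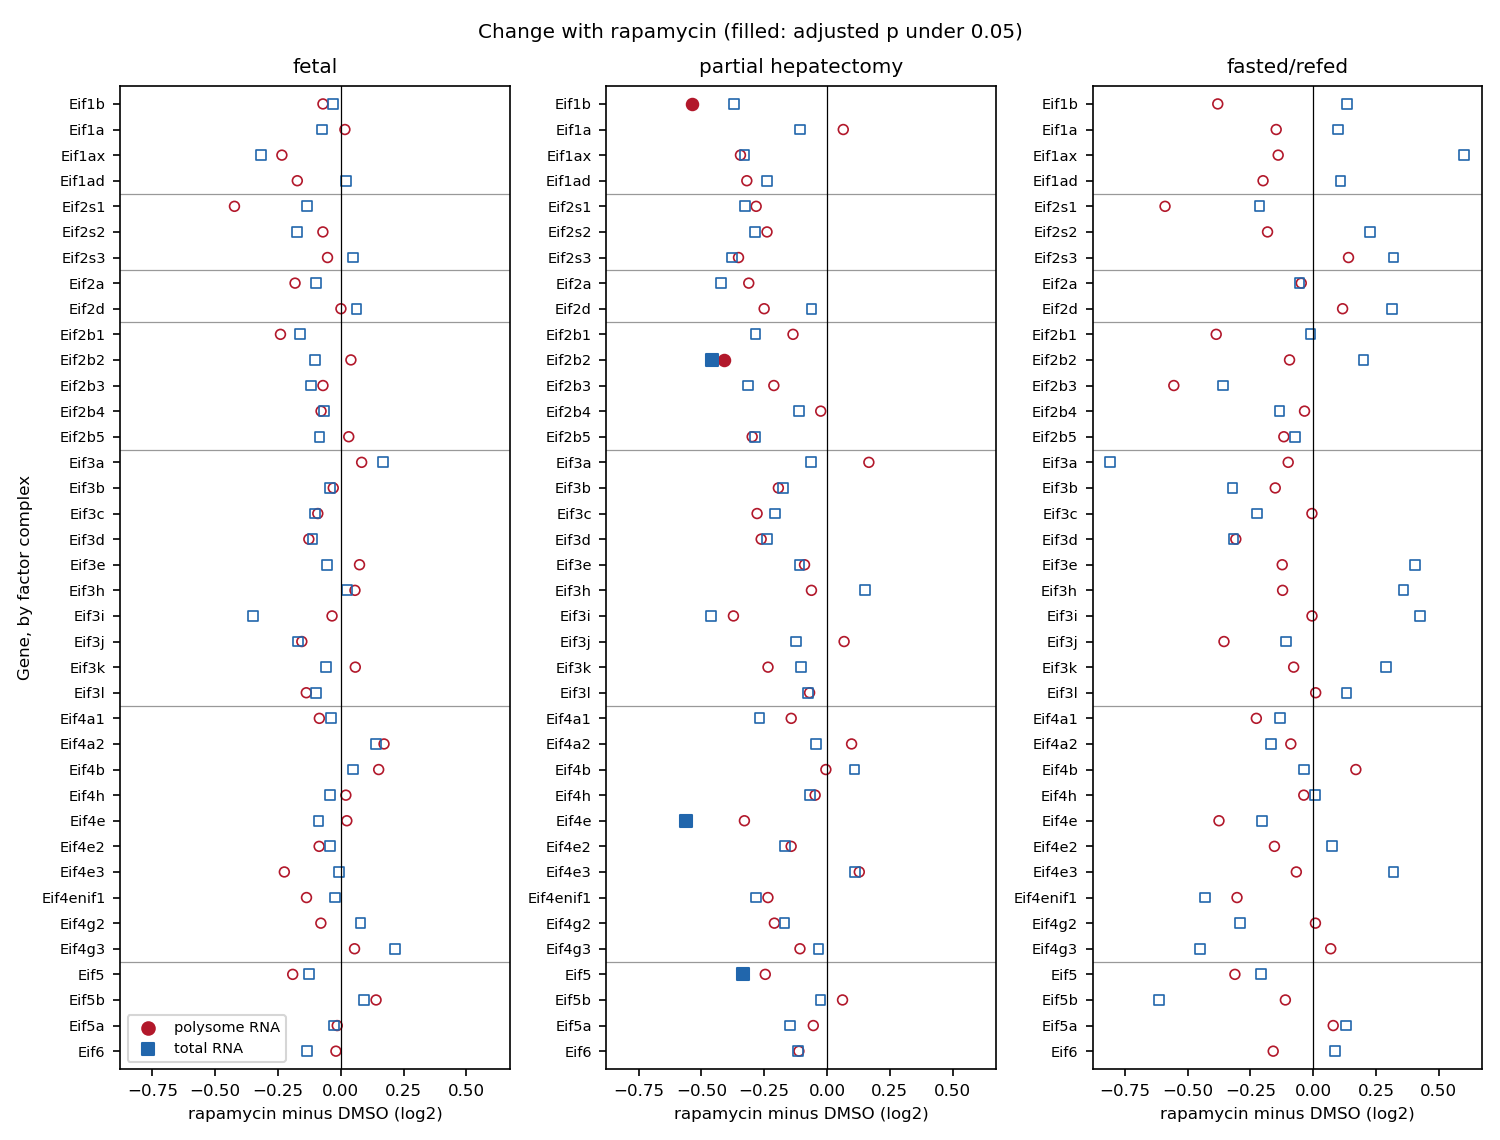
Change with rapamycin in each model (panels) for the 38 genes (rows, by factor complex), as rapamycin minus DMSO in log2. Circles are polysome RNA, squares total RNA, and filled symbols have an adjusted p under 0.05. Filled symbols stand only in the hepatectomy panel, at Eif1b, Eif2b2, Eif4e and Eif5, and all lie left of 0.

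In fasted/refed livers no member and no transcript cluster at all passed the threshold with rapamycin, in polysome RNA (0 of 38, 0% of all in either direction) or in total RNA (0 of 38, 0% of all). By limma's unadjusted p under 0.05, 1 member (2.63%) passed in polysome RNA, against 4.84% of all transcript clusters, and 6 (15.8%) in total RNA, against 16.9% of all. In polysome RNA 31 of 38 changes were negative, while 50.5% of all transcript clusters had a positive change. The median over members was -0.12, against 0.00 over all transcript clusters. With 1 array left out it ran between -0.175 and -0.025. Polysome DMSO replicate 3 stood high for the members, with a median level of 11.47, against 10.98 and 10.95 in replicates 1 and 2. The smallest adjusted p of a member in polysome RNA was that of Eif5, at -0.31 ± 0.09 (limma adjusted p = 0.779). In total RNA the members were split, with 18 positive and 20 negative changes and a median of -0.02.

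The total RNA changes of refed livers lay between -0.81 and 0.60 on the log2 scale. Eif3a stood at -0.81 ± 0.26 (limma adjusted p = 0.237), Eif5b at -0.61 ± 0.22 (limma adjusted p = 0.243) and Eif1ax, an eIF1A gene, at 0.60 ± 0.20 (limma adjusted p = 0.237). Without DMSO replicate 2, which read lowest of its group for Eif3a, 7 members passed, 3 higher (Eif1ax, Eif3h, Eif3i) and 4 lower (Eif3a, Eif4enif1, Eif4g3, Eif5b). That is 18.4% of members, near the 16.2% of all transcript clusters called in the same fit. Without any of the other 5 arrays the count was 0. Eif1a and Eif1ax are near-identical genes whose probes may share signal, which was not tested.

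In fetal livers rapamycin also gave 0 of 38 in polysome RNA and 0 of 38 in total RNA, with 0% of all transcript clusters called in either. By limma's unadjusted p under 0.05, 2 members (5.26%) passed in polysome RNA, against 2.27% of all, and 0 in total RNA, against 1.83% of all. Medians were -0.06 in each fraction, against -0.03 and -0.02 over all transcript clusters. The lowest change was that of Eif2s1 in polysome RNA, -0.42 on the log2 scale, and the highest that of Eif4g3 in total RNA, 0.21. No count changed without any single fetal array or with the replicate number as a block.

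Eif5 was lower with rapamycin in all 6 comparisons of model and fraction, and its arrays did not overlap in 5 of them. This gene was singled out after its values were seen, and it was called in 1 comparison. Among the 38 members, 11 had negative changes in all 6 comparisons and none had positive changes in all 6. This was not counted over all transcript clusters, so it is not shown to be particular to the members. In hepatectomy polysome RNA Eif5 read 11.80, 11.79 and 11.71 in rapamycin livers and 11.95, 12.03 and 12.06 in DMSO livers. In hepatectomy total RNA it read 11.62, 11.66 and 11.59 in rapamycin livers and 11.91, 11.96 and 12.01 in DMSO livers.

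In refed polysome RNA Eif5 read 11.86, 11.90 and 11.90 with rapamycin and 12.11, 12.16 and 12.32 with DMSO. In refed total RNA it read 11.88, 11.89 and 11.82 with rapamycin and 11.97, 12.15 and 12.07 with DMSO. The adult rapamycin livers thus lay below their DMSO livers in both fractions of both models. In fetal polysome RNA it read 11.83, 11.67, 11.69 and 11.81 with rapamycin and 11.89, 11.85, 12.04 and 11.99 with DMSO. Fetal total RNA was the exception: rapamycin arrays of 11.64, 11.92, 11.79 and 11.73 overlapped DMSO arrays of 11.89, 11.94, 11.88 and 11.87. Fractions of a liver are not independent of each other, so the 6 comparisons rest on 3 sets of livers. In hepatectomy polysome RNA the change of Eif5 was -0.25 ± 0.07 and just missed the threshold (limma adjusted p = 0.0507).

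**Figure D3:**
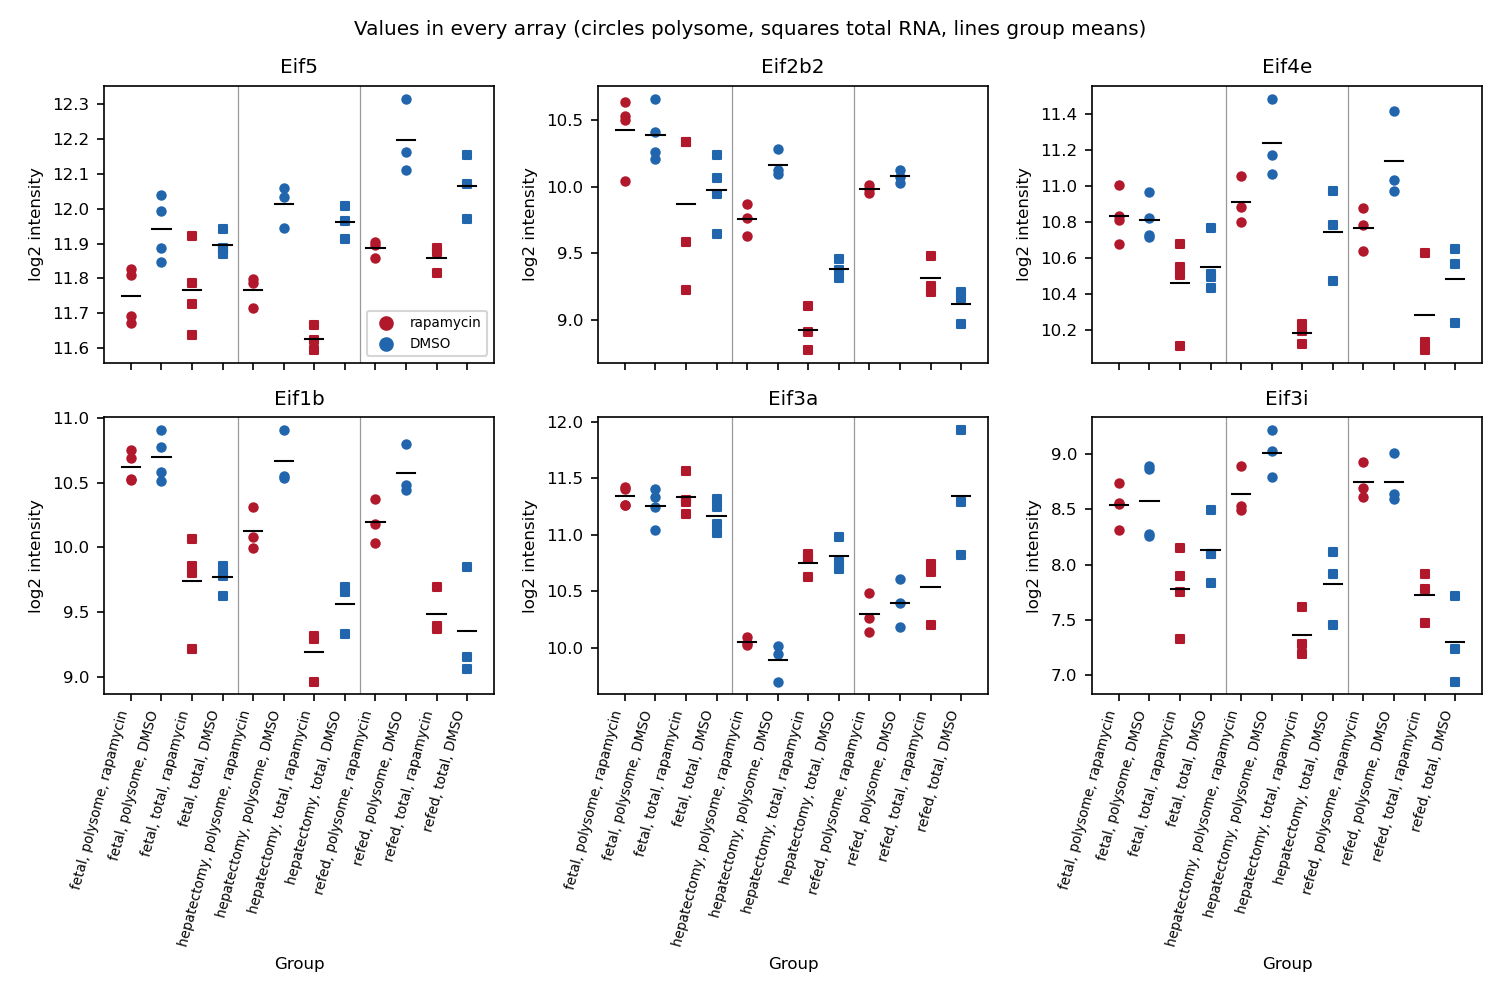
Log2 intensity of 6 genes in every array, with groups along the horizontal axis and group means as lines. Red points are rapamycin and blue points DMSO livers, circles polysome and squares total RNA. Eif5 rapamycin points lie below DMSO points in every pair of groups but fetal total RNA, and Eif3a total RNA of refed DMSO livers spreads over 10.82 to 11.93.

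For no member did the rapamycin change differ between fractions past the threshold. As an interaction within each model, 0 of 38 passed in hepatectomy, 0 of 38 in refed and 0 of 38 in fetal livers, and 0% of all transcript clusters did in each. Unadjusted p under 0.05 (limma) was reached by 0 members after hepatectomy, 2 in refed and 0 in fetal livers, against 1.45%, 2.45% and 0.414% of all transcript clusters in these models. The interaction medians were 0.02 after hepatectomy, -0.18 in refed and 0.01 in fetal livers. None of these misses shows that the fractions responded alike.

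Nor did the rapamycin change differ between the 3 models past the threshold. In polysome RNA 0 of 38 members passed a moderated F-test, against 0.0368% of all transcript clusters. An unadjusted p under 0.05 was reached by 0 members and by 5.72% of all. In total RNA 0 of 38 passed, against 0.424% of all. An unadjusted p under 0.05 was reached by 6 members (15.8%), near the 15.4% of all transcript clusters. Eif3a came closest (limma adjusted p = 0.0788), with changes of 0.17 in fetal, -0.06 in hepatectomy and -0.81 in refed livers. Without refed total DMSO replicate 2, 5 members passed (Eif1ax, Eif3a, Eif3i, Eif4g3 and Eif5b), 13.2% against 12.3% of all transcript clusters.

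In DMSO livers, the polysome arrays were set against the total RNA arrays. Because the arrays were normalized to 1 distribution, a difference says how an mRNA stood relative to others in its fraction, not how many of its copies carried ribosomes. In regenerating livers 16 of 38 members were higher and 5 lower on polysomes, against 28.8% and 15% of all transcript clusters. Eif3i, a WD-repeat subunit of eIF3, read 9.02, 9.22 and 8.79 in polysome arrays and 7.45, 8.11 and 7.92 in total arrays. The fractions did not overlap, and the difference was 1.18 ± 0.18 (limma adjusted p = 0.000358). Eif3a read 9.94, 10.02 and 9.70 in polysome arrays and 10.70, 10.98 and 10.76 in total arrays, lower by an equally clear margin (-0.93 ± 0.11, limma adjusted p = 6.34e-05).

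Members higher on polysomes after hepatectomy came from every complex but eIF2. In the start-site group they were Eif1b (1.10), Eif1ax (0.54) and Eif1ad (1.10), the last placed there only as an eIF1A domain protein. They were also Eif2b2 (0.78) and Eif2b1 (0.60) of eIF2B, Eif2d (0.64), and Eif3k (0.70) of eIF3. In the eIF4 group they were the cap-binding homologs Eif4e2 (0.81) and Eif4e3 (0.75) and Eif4e itself (0.50). With Eif3i these are 11 of the 16, and the others were Eif2b4, Eif6, Eif3h, Eif5a and Eif4h, at 0.31 to 0.39. Those lower were the joining GTPase Eif5b (-0.71), Eif3c (-0.45) and the scaffold genes Eif4g2 and Eif4g3 (-0.37 each), besides Eif3a.

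In refed livers 14 members were higher and 4 lower on polysomes, against 19.5% and 5.14% of all transcript clusters. Eif3i again had the largest rise, with 8.64, 8.59 and 9.01 in polysome arrays and 7.24, 7.71 and 6.94 in total arrays (1.45 ± 0.21, limma adjusted p = 0.00131). These total readings lay near the medians of the same arrays (7.19 to 7.26). The mean of Eif3i over all arrays, 8.20, lay at the 50th percentile of named transcript clusters. Whether its transcript cluster reads Eif3i alone was not tested. Eif3a had the largest fall, with 10.18, 10.39 and 10.61 in polysome arrays and 11.29, 10.82 and 11.93 in total arrays. Its groups did not overlap but the total arrays spread over more than 1 log2 unit (-0.95 ± 0.26, limma adjusted p = 0.0197).

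The other rises in refed livers were Eif1b (1.22), Eif1ax (1.11), Eif1ad (1.07), Eif2b2 (0.96), Eif4e2 (0.85), Eif3k (0.80), Eif4e (0.66), Eif2d (0.66), Eif3h (0.60), Eif2s2 (0.59), Eif6 (0.58), Eif5a (0.40) and Eif4h (0.38). The other falls were Eif4g2 (-0.82), Eif5b (-0.69) and Eif4b (-0.33). Without total DMSO replicate 1 the count was 10, and without total DMSO replicate 2 it was 21. Calls over all transcript clusters in those fits are not given, so these shifts are not shown to be particular to the members.

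In fetal livers 8 members were higher and 0 lower, against 8.1% and 6.38% of all transcript clusters. Eif1b read 10.91, 10.78, 10.58 and 10.51 in polysome arrays and 9.85, 9.78, 9.82 and 9.63 in total arrays, with no overlap (0.92 ± 0.16, limma adjusted p = 0.0015). The others were Eif1ad (0.65), Eif3k (0.51), Eif2s2 (0.50), Eif2b4 (0.50), Eif2d (0.48), Eif4e2 (0.46) and Eif2b5 (0.37). The count was 4 without polysome replicate 1 or polysome replicate 2, and 5 without total replicate 3 or total replicate 4. No share of all transcript clusters stands beside these lower counts, so they too are not shown to be particular to initiation factors. By limma's unadjusted p under 0.05, 13 members (34.2%) differed, against 29.6% of all transcript clusters.

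Stellate and endothelial markers were lower on polysomes in each model. After hepatectomy 4 of 6 stellate and 4 of 7 endothelial markers fell, in refed livers 3 of 6 and 3 of 7, and in fetal livers 5 of 6 and 3 of 7. Hepatocyte markers fell too, 5 of 8 in each adult model, and macrophage markers fell in 4 of 9 after hepatectomy. In refed livers 1 macrophage marker rose and 1 fell, and in fetal livers 1 fell. Mean stellate levels were 8.48 to 9.10 in polysome and 9.39 to 9.72 in total arrays after hepatectomy. They were 8.95 to 9.35 in polysome and 9.76 to 9.99 in total arrays of refed livers, and 8.52 to 9.20 in polysome and 9.53 to 10.12 in total arrays of fetal livers. Their part in the initiation factor differences was not tested.

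Across models, 5 members were higher on polysomes in all 3: Eif1b, Eif1ad, Eif2d, Eif3k and Eif4e2. They make up 31.3% of the rises called after hepatectomy, 35.7% of those in refed and 62.5% of those in fetal livers. Both adult models shared 13 rises (81.3% of the hepatectomy and 92.9% of the refed ones) and 3 falls, Eif3a, Eif4g2 and Eif5b (60% and 75%). The same overlap was not counted over all transcript clusters, so it is not shown to be particular to initiation factors. The 3 models use separate livers. In the rapamycin livers, which the DMSO comparison did not use, the fractions differed in the same direction for 21 of 21, 18 of 18 and 8 of 8 of these members in hepatectomy, refed and fetal livers. Over all transcript clusters called, that share was 99.4%, 99.1% and 99.9%.

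Cyclic loess in place of the deposited scaling lowered the share of rises among the calls, to 13 of 20 after hepatectomy, 8 of 13 in refed and 8 of 9 in fetal livers. No called member changed its sign. The median over all transcript clusters moved by 0.09 or less under it. The split of all called transcript clusters under cyclic loess is not given. The lowered share of rises is therefore not shown to be particular to the members.

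**Figure D4:**
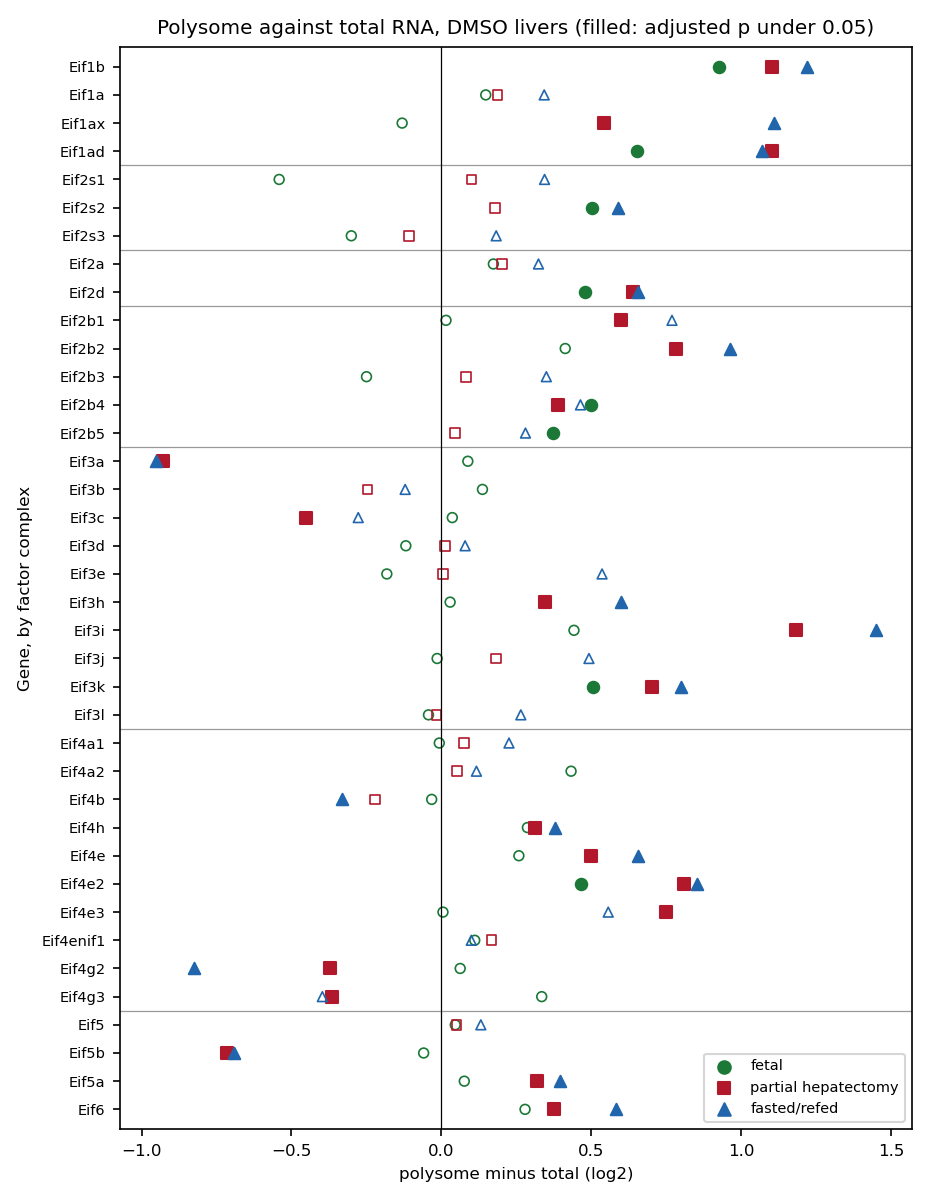
Polysome minus total RNA in DMSO livers for the 38 genes (rows, by factor complex), in log2. Green circles are fetal, red squares hepatectomy and blue triangles refed livers, and filled symbols have an adjusted p under 0.05. Eif3i lies at 1.18 and 1.45 in the adult models, while Eif3a lies at -0.93 and -0.95 there and at 0.09 in fetal livers.

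The polysome difference itself varied between the models for 4 of 38 members by a moderated F-test on all arrays, against 7.44% of all transcript clusters. Eif3a had a polysome difference of 0.09 in fetal, -0.93 in hepatectomy and -0.95 in refed livers (limma adjusted p = 0.00512). The eIF4G relative Eif4g2 had 0.06 in fetal, -0.37 in hepatectomy and -0.82 in refed livers (limma adjusted p = 0.0253). Its relative Eif4g3, a canonical scaffold, had 0.33 in fetal, -0.37 in hepatectomy and -0.40 in refed livers (limma adjusted p = 0.0325). For Eif3i the values were 0.44 in fetal, 1.18 in hepatectomy and 1.45 in refed livers (limma adjusted p = 0.0493).

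In these DMSO livers the adult models were thus close together for Eif3a and Eif4g3, and fetal livers lay apart. The rapamycin livers did not show the adult models as close. There Eif3a stood at 0.00 in fetal, -0.70 in hepatectomy and -0.24 in refed livers. Eif4g3 stood at 0.17, -0.44 and 0.12 in that order. With liver as a random block in the F-test, since both fractions come from 1 liver, 16 members (42.1%) passed. Among them were the 4 named above, and 25.4% of all transcript clusters passed. The count fell to 1 without fetal polysome replicate 4, refed polysome replicate 2, refed total replicate 1 or refed total replicate 3, and to 2 without fetal total replicate 1, 2 or 3 or refed polysome replicate 3. It was 8 (21.1%) without refed total replicate 2, against 17.5% of all transcript clusters. For the counts of 1 and 2 that share is not given, so those drops are not shown to be particular to the members.

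Between the models, total RNA of DMSO livers was compared on all 40 arrays. Fetal livers differed from refed adult livers in 12 of 38 members, 10 higher and 2 lower, against 28.1% and 19% of all transcript clusters. Eif1ax read 9.94, 10.11, 9.62 and 9.13 in fetal livers and 8.48, 9.17 and 8.49 in refed livers (0.99 ± 0.25, limma adjusted p = 0.00137). The lowest fetal array fell just under the highest refed one. Eif4g2 read 11.13, 10.95, 10.65 and 10.54 in fetal livers and 11.54, 11.09 and 11.68 in refed livers, with 1 fetal array above the lowest refed one (-0.62 ± 0.15, limma adjusted p = 0.00118).

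Other members higher in fetal than in refed livers were Eif2b2 (0.86), Eif3i (0.83), Eif2s3 (0.73), the gamma subunit of eIF2, Eif1ad (0.52), Eif5a (0.42), Eif1b (0.41), Eif3k (0.39), Eif3h (0.31) and Eif4e2 (0.26). Eif5a had the smallest adjusted p, 7.26e-05 by limma. Eif2b4, another eIF2B subunit, was lower (-0.57). So 1 subunit of eIF2B was higher, 1 lower, and 3 did not pass. Under cyclic loess the split among 12 calls was 6 higher and 6 lower, with no split over all transcript clusters given beside it.

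Against regenerating livers, fetal livers were higher in 9 of 38 members and lower in 2, against 19.9% and 17% of all transcript clusters. Eif2b2 read 9.65, 9.94, 10.07 and 10.23 in fetal livers and 9.32, 9.46 and 9.38 in hepatectomy livers, with no overlap (0.59 ± 0.18, limma adjusted p = 0.011). Eif2b4 went the other way, with 9.10, 9.22, 9.12 and 8.94 in fetal livers and 9.63, 9.86 and 9.62 in hepatectomy livers (-0.61 ± 0.16, limma adjusted p = 0.00281). These 2 subunits of 1 complex thus stood on opposite sides, each with separated arrays.

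The eIF4 group supplied 5 of the 9 rises: the eIF4E transporter Eif4enif1 (0.47), Eif4g3 (0.47), Eif4a2 (0.45), Eif4b (0.45) and Eif4h (0.23). Eif2b1 (0.53), Eif3h (0.49) and Eif5b (0.46) were the rest besides Eif2b2, and Eif2d (-0.47) was the other fall. Eif4b had the smallest adjusted p, 0.000245 by limma. The number of members that passed was 6 without hepatectomy replicate 1 and 7 without hepatectomy replicate 3. Calls over all transcript clusters in these fits are not given, so the drops are not shown to be particular to the members.

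Fetal liver is also a blood-forming organ, and its markers moved with both comparisons. All 9 erythroid markers measured rose against each adult model, with means of 12.31 to 13.02 in fetal, 8.19 to 8.54 in hepatectomy and 7.72 to 8.29 in refed total DMSO arrays. All 5 granulocyte markers tested also rose, with means over 6 measured markers of 9.95 to 10.18 in fetal, 6.24 to 6.45 in hepatectomy and 6.08 to 6.47 in refed arrays. Genes of dividing cells averaged 9.61 to 10.37 in fetal, 9.95 to 10.67 in hepatectomy and 6.01 to 6.11 in refed arrays. Their part in the initiation factor differences was not tested.

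Regenerating livers differed from refed livers in 7 members, 2 higher and 5 lower, against 12.4% and 5.03% of all transcript clusters. Eif1ax read 9.21, 9.70 and 9.55 in hepatectomy livers and 8.48, 9.17 and 8.49 in refed livers (0.77 ± 0.26, limma adjusted p = 0.041). Eif4a2 read 10.84, 11.05 and 10.79 in hepatectomy livers and 11.34, 11.31 and 11.99 in refed livers (-0.65 ± 0.19, limma adjusted p = 0.0137). Neither pair of groups overlapped.

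Eif5a was higher (0.25), and Eif5b (-0.58), Eif3a (-0.53), Eif4g2 (-0.52) and Eif4b (-0.29) were lower. The calls turned on single arrays: the count was 1 without refed replicate 1, refed replicate 3 or hepatectomy replicate 3, and 4 without hepatectomy replicate 1. Under cyclic loess 7 members passed, 0 higher and 7 lower. Shares over all transcript clusters are not given for these alternative fits, so the changes are not shown to be particular to the members. All 7 genes of dividing cells tested were higher in hepatectomy livers, with 3 of 9 erythroid markers higher (Ahsp 1.34, Alas2 1.00, Hbb 0.75), 1 lower (Tfrc -1.01) and 2 of 9 macrophage markers higher (Marco 1.31, C1qb 0.69). The part of these cells was not tested.

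**Figure D5:**
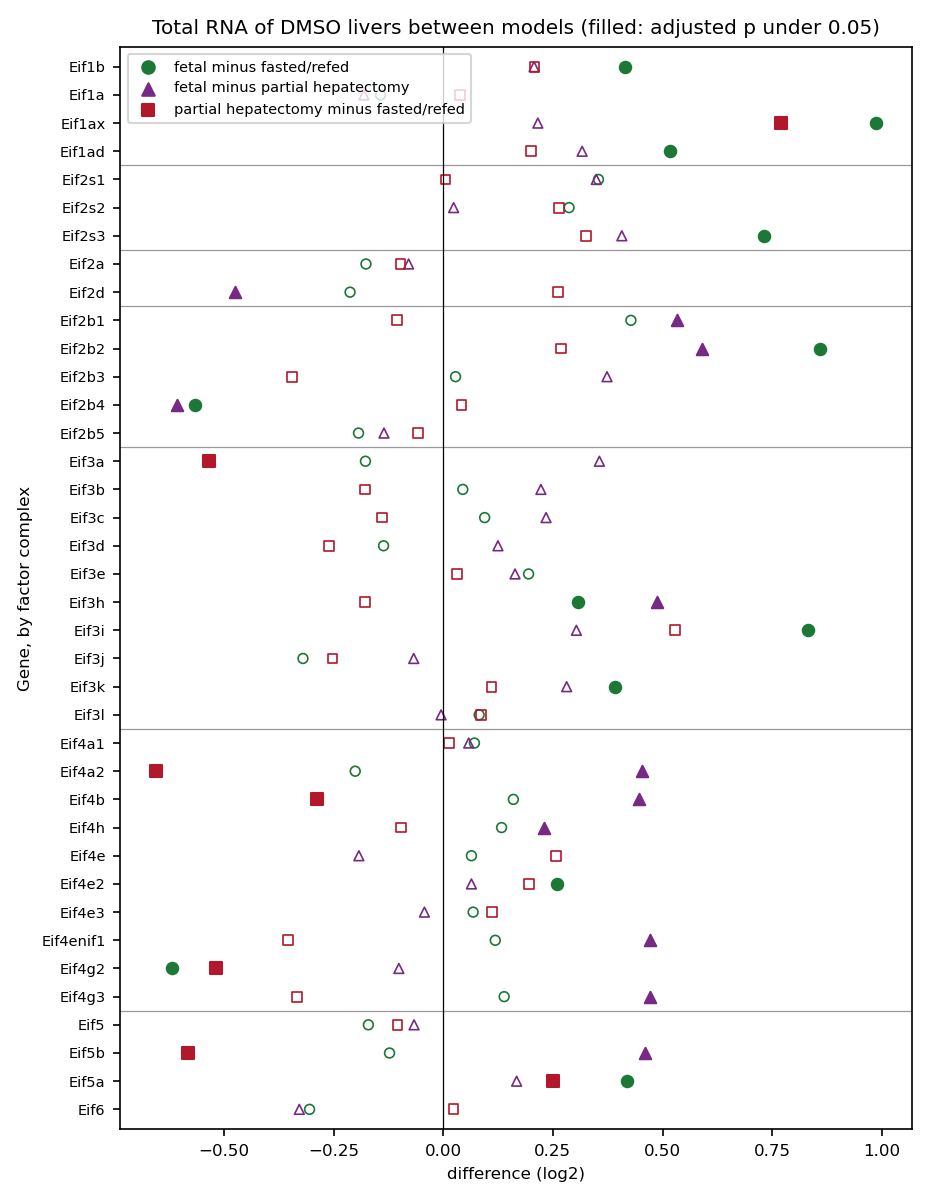
Difference in total RNA of DMSO livers between models for the 38 genes (rows, by factor complex), in log2. Green circles are fetal minus refed, purple triangles fetal minus hepatectomy and red squares hepatectomy minus refed, and filled symbols have an adjusted p under 0.05. Eif2b2 lies at 0.86 and 0.59 and Eif2b4 at -0.57 and -0.61 in the fetal comparisons.

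Other genes of the pathway were described from 3 lists. Of these, 23 of 28 regulators and 6 of 9 ribosome partners (1 gene, Pdcd4, is also a regulator) were tested. On the elongation and termination list 12 of 14 genes were tested. That list also holds genes that are not themselves such factors, among them Eef1e1, Eef2k, Mtif2 and Mtif3. With rapamycin 1 gene of these lists was called in any model, Ddit4, an mTOR inhibitor induced by stress. It fell by 0.73 ± 0.16 in hepatectomy polysome RNA (limma adjusted p = 0.0308), where 4.1% of all transcript clusters fell. On polysomes after hepatectomy 5 of 23 regulators were higher and 5 lower, against 28.8% and 15% of all transcript clusters. Among them were Eif4ebp1 (0.78), the best known eIF4E-binding protein, Paip2 (0.61), Mtor (-0.75) and Pabpc4 (-0.70). In refed livers 5 regulators were higher and 0 lower, led by Eif4ebp1 (1.11) and Rheb (0.71), against 19.5% and 5.14% of all. In fetal livers 1 was higher (Paip2, 0.49) and 1 lower (Eif2ak3, -0.39), against 8.1% and 6.38% of all.

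Genes on the elongation and termination list split in the same comparison after hepatectomy. Of 12 tested, Eef1e1 (1.28) and Eef1d (0.45) were higher and Eef2 (-0.40) and Eef1a1 (-0.18) lower on polysomes. The shares over all transcript clusters were 28.8% and 15%. In refed livers 3 were higher, Eef1e1 (1.15), Eef1d (0.69) and Tufm (0.33), and none was lower, against 19.5% and 5.14% of all.

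In total RNA 12 of 23 regulators were higher and 2 lower in fetal than in refed livers, against 28.1% and 19% of all transcript clusters. In fetal than in hepatectomy livers 9 regulators were higher and 0 lower, against 19.9% and 17% of all. Among them were the eIF2 phosphatase subunit Ppp1r15a (1.96 and 1.55), the eIF4E kinase Mknk1 (1.12 and 1.24), the eIF4A inhibitor Pdcd4 (1.24 and 1.17) and the haem-regulated eIF2 alpha kinase Eif2ak1 (0.91 and 1.02), given against refed and hepatectomy livers in that order. Eif2ak2 (-0.93) and Rptor (-0.51) were lower in fetal than in refed livers. Eif4ebp1 was the 1 regulator called between hepatectomy and refed livers (0.68), where 12.4% of all transcript clusters were higher and 5.03% lower.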

How the data were processed

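The authors deposited 1 intensity per transcript cluster and array, made with RMA (background correction, normalization and probe summary), per the submitters' processing notes. No version of RMA or build of the array annotation was stated. Intensities were log2-transformed here with no pseudocount. Names came from the platform annotation, and 37 of 38 members matched RefSeq GRCr8 by gene ID. Transcript clusters with a symbol and a mean log2 intensity of 6.70 or more (30th percentile) were tested, 10860 in all.

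Comparisons were fitted with limma 3.58.1 (R 4.3.3), empirical Bayes with an intensity trend, within a model on its arrays (8 residual degrees of freedom in adults, 12 in fetuses) and across models on all 40 (28). Two-sided p-values were adjusted by Benjamini-Hochberg, threshold 0.05. Fits were tested on simulated data. Errors are SE of log2 changes and SD of group means. Figures used Python 3.11.15 with matplotlib 3.10.9.

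Groups and replicate numbers came from the titles. Deviations from group means correlated at 0.33 to 0.82 between the 2 fractions of a liver (20 livers, taken from equal treatment and number). Between equal numbers of the 2 treatments they correlated at 0.42 to 0.75 in fetuses, -0.07 to 0.28 after hepatectomy and -0.62 to 0.39 in refed livers. Alternatives were no intensity filter, cyclic loess, blocks, another set of arrays for the variance and leaving out each array. The rule for named genes gave levels of fixed members, every array for the largest rise and fall of a comparison, and up to 12 other calls per direction. Members and lists were chosen with earlier results of these data known.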

Additional observations from a re-analysis of the deposited data

Results flagged for a closer look

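Polysome minus total RNA differed between the models by the F-test for 4 members, with limma adjusted p of 0.00512 for Eif3a, 0.0253 for Eif4g2, 0.0325 for Eif4g3 and 0.0493 for Eif3i. In a group of 4 fetal arrays, 1 array stood apart from the other 3 in 4 of 152 cases checked, where chance gives about 1 in 20. Eif1a read 10.96 in polysome DMSO replicate 2, against 11.38 to 11.41 in the others. Eif3k read 10.80 in total DMSO replicate 3, against 10.55 to 10.59. Eif4enif1 read 9.46 in total rapamycin replicate 3, against 9.76 to 9.80. Eif5b read 10.26 in polysome rapamycin replicate 3, against 10.49 to 10.53.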

How the results depend on the processing

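No called member changed direction under any alternative. With no intensity filter, hepatectomy polysome rapamycin gave 0 calls and hepatectomy against refed 4. Cyclic loess gave 1 call (Eif5) in hepatectomy polysome RNA with rapamycin (2.63%, against 6.54% of all transcript clusters). Under it the polysome minus total median over members in refed livers was 0.16 (0.36 as deposited). With variance from all 40 arrays, rapamycin gave 0 calls in hepatectomy polysome RNA, against 1.78% of all transcript clusters. The same setting gave 1 in hepatectomy total (2.63%, against 2% of all) and 2 in refed total RNA (5.26%, against 3.21% of all). Fitted on only the groups compared, hepatectomy against refed gave 0, fetal against refed 6 and the polysome F-test 1. The cause of these shifts was not tested. With the liver as a random block the F-test gave 16. With the replicate number as a block, hepatectomy total rapamycin gave 5 (13.2%, against 11.5% of all), but adult numbers were not shown to pair livers. The other blocked fits kept each count within 1.5 times. With the liver as a block, polysome minus total gave 25 calls after hepatectomy (65.8%, against 61% of all) and 27 in refed livers. With variance from all 40 arrays it gave 16 after hepatectomy (42.1%, against 26.2% of all) and 23 in refed livers.

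Leaving out 1 array gave 0 to 7 calls for rapamycin in hepatectomy polysome, 0 to 5 in hepatectomy total and 0 to 7 in refed total RNA. For polysome minus total it gave 18 to 22 after hepatectomy, 10 to 21 in refed and 4 to 9 in fetal livers. Between models it gave 1 to 9 (hepatectomy against refed), 8 to 13 (fetal against refed) and 6 to 11 (fetal against hepatectomy). The F-tests gave 0 to 5 (rapamycin, total RNA) and 1 to 8 (polysome minus total). The refed interaction median ran between -0.25 and -0.024 (-0.18 with all arrays). Through every alternative, 14 of 21 hepatectomy, 8 of 18 refed and 4 of 8 fetal polysome calls, 6 of 12 fetal against refed and 6 of 11 fetal against hepatectomy calls were kept. So were 0 of 7 hepatectomy against refed calls, 1 of 4 polysome F-test calls and 0 rapamycin calls. A count above that stands without the share over all transcript clusters in the same fit is not shown to be particular to the members.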
